A study of Mus musculus with 6 samples.

Results

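The genes described here encode the machinery that copies DNA in S phase. They were taken as a fixed list of 36 genes, each represented by the probe set with the highest mean among those annotated with its symbol alone (Cdc45 also as Cdc45l). Of these, 35 were measured among 18193 genes, and Chaf1a was not analysed here. The list was compared between regulatory T cells (Tregs) of 3 treated and 3 untreated mice, all female and of the diabetes-prone NOD strain, with 1 Affymetrix M430v2 array per mouse. Every mouse had the BDC2.5 TCR tg, a rearranged receptor transgene directed at an antigen of pancreatic islets, together with Foxp3GFP, a reporter that makes Foxp3-expressing cells fluoresce green. Treated mice were RAG1o/o, so that the transgene supplied their only rearranged receptor, and received 37.5 µg of the anti-CD3 antibody KT3 intravenously on 5 consecutive days, the first at 17 days of age. They were 28 or 29 days old at analysis, which the labels give as 11 or 12 days after treatment. Untreated mice were RAG1+/o, had received no antibody and were also 28 or 29 days old. Genotype and antibody differed together and cannot be told apart. The sort took CD4+ GFP+ spleen cells that lacked B220, CD8a and CD11b/c.

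A cell that prepares to divide first licenses its replication origins: Cdc6 and Cdt1 load the Mcm2 to Mcm7 helicase onto DNA during G1. Cyclin E and its kinase then drive entry into S phase, Cdc45 and the GINS proteins switch the helicase on, and primase, polymerases and the PCNA clamp copy the strands. Many of these genes are switched on together at the end of G1 by E2F transcription factors, so their transcripts mark cells in or near division. Tregs are known to divide more than other CD4+ T cells in the resting spleen.

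Since E2F control is the best known feature that these genes share, their promoters were searched for E2F words. RefSeq windows of GRCm38.p6, from 250 bases before to 50 bases after the start of each gene, were found for 29 of the 35 measured genes. The 4 words TTTGGCGC, TTTCCCGC, TTTGCCGC and TTTCGCGC were searched on both strands, where neighbouring matches can overlap. At least 1 word was present in 11 of these 29 genes (37.9%) and in 3.81% of the 14452 tested genes with a window. At least 2 matches were found in 5 of the 29 (17.2%) and in 0.166% of the tested genes. The list was put together from replication genes, many of them known E2F targets, so this share describes the list. In 7 genes a match began before the start, and their last 170 bases before the start are shown because they carry 1 or more of the 4 words, in capitals.
Mcm5, chr8:75109339-75109508, plus strand: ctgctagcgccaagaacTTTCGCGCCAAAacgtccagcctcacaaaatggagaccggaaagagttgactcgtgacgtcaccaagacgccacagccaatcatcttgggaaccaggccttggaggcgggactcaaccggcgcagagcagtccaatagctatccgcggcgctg
Mcm6, chr1:128359706-128359875, minus strand: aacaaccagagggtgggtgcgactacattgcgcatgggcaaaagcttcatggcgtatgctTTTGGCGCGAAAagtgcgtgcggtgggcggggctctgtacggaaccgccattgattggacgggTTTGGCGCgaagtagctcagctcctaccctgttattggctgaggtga
Mcm7, chr5:138171884-138172053, minus strand: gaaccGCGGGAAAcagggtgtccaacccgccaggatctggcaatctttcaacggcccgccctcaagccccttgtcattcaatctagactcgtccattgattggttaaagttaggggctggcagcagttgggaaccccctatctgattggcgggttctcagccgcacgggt
Cdc6, chr11:98907981-98908150, plus strand: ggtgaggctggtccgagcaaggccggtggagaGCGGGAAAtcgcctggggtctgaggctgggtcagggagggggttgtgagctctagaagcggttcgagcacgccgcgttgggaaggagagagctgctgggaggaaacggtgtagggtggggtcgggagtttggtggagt
Gins3, chr8:95633389-95633558, plus strand: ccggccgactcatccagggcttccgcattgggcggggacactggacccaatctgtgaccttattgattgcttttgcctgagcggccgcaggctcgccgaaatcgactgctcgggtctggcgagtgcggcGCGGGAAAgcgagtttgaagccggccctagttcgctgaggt
Rfc3, chr5:151651209-151651378, minus strand: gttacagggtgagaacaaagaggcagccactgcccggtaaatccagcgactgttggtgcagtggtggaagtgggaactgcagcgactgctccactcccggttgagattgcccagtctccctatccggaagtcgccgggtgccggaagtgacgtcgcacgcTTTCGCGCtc
Pola1, chrX:93632156-93632325, minus strand: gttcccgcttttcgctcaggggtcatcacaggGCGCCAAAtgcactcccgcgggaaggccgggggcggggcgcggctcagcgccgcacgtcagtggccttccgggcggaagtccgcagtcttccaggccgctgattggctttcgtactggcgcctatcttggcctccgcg
In Mcm5 and Mcm6 a word on one strand overlapped a word on the other, so that the capitals run on. Mcm3, Cdt1, Pold1 and Lig1 held a word only after the start. Where a gene had several annotated starts, a word in the window of any of them counted. Lig1 and Mcm7 also had windows without a word. The word TTTGCCGC had 0 matches in the 29 genes. The 11 genes with a word had a median difference between treated and untreated Tregs of −0.39 on the log2 scale, and the 18 without one had −0.42. A match is a run of letters, not a measured binding site.

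The arrays were checked before the genes were compared. Medians ran from 85.3 to 92.4 intensity units, and the number of arrays limits the precision. Treated replicate 2 stood apart: its interquartile range was the narrowest (2.59 on the log2 scale, against 2.82 to 3.01 on the other arrays) and limma gave it an array weight of 0.242, against 0.731 to 2.58. Treated replicate 1 correlated most closely with untreated replicate 1 (r = 0.9895 over 45037 probe sets), more than any 2 arrays of the same group (0.9501 to 0.9813). Foxp3 ran from 9.95 to 12.44 and Cd3e from 11.62 to 12.16 over the 6 arrays, so the defining Treg transcripts were present on every array. Every treated value of Foxp3, 11.43, 11.46 and 12.44, lay above every untreated value, 10.75, 9.95 and 11.07 (difference +1.19, limma adjusted p = 0.914). Transcripts of other cells were present despite the sort. Replicates are given in the order 1, 2 and 3 throughout. The 9 B cell markers averaged 6.75, 6.77 and 6.75 on the arrays of treated Tregs, from RAG1o/o mice, against 9.98, 9.96 and 7.50 on those of untreated Tregs, from RAG1+/o mice. For 8 neutrophil precursor genes the averages were 11.28, 9.75 and 10.94 in treated Tregs, against 10.84, 10.86 and 6.5996 in untreated Tregs. That of 8 erythroid precursor genes was 8.95, 7.77 and 8.26 in treated Tregs, and 9.01, 8.84 and 7.01 in untreated Tregs. Untreated replicate 3 therefore had the least signal of all 3 kinds of cell among untreated samples. The 3′ minus 5′ signal of the actin control, which grows as RNA is degraded, was 1.42, 1.94 and 3.62 in treated and 1.31, 1.95 and 0.92 in untreated samples on the log2 scale.

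The comparison asked how far the Tregs found after anti-CD3 treatment differ in replication transcripts from those of untreated mice. Most of the list lay lower in treated Tregs, by modest amounts, and no gene passed the test. Of the 35 genes, 28 had a difference below 0 and 7 above, where 41.5% of all genes lay below 0 and 58.5% above. The median difference was −0.40 on the log2 scale, and that of all genes was +0.05. By limma with Benjamini-Hochberg adjustment over 18193 genes, 0 of the 35 passed an adjusted p of 0.05 (0% of all genes passed on either side), and their adjusted p ranged from 0.914 to 0.993. At an unadjusted p under 0.05 there were 2 lower genes, Prim2 and Prim1, and 0 higher, where 3.17% of all genes were lower and 1.82% higher. That count is close to the background. In 3 genes, Mcm7, Prim2 and Rpa2, all treated values lay below all untreated ones, where 5.24% of all genes did so. The reverse held in 0 of the 35 and in 5.61% of all genes. In these bulk samples, fewer dividing cells and less of each transcript per cell cannot be told apart. Transcripts of cells other than Tregs were also present on these arrays, and their part in these values was not tested.

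**Figure D1:**
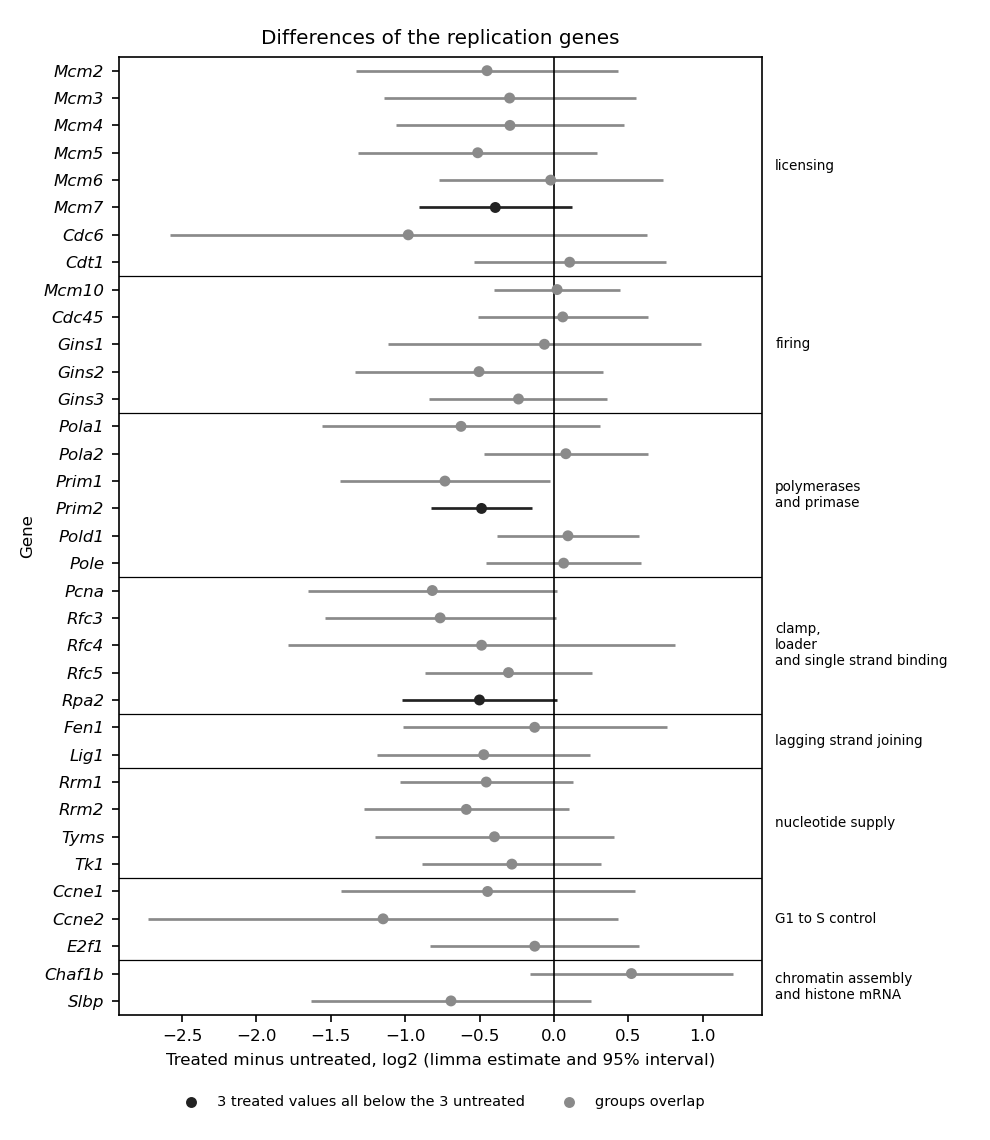
Difference in log2 intensity between treated and untreated Tregs (x axis) for each replication gene (y axis), grouped by role; points are limma estimates, lines 95% intervals, and dark points mark genes whose 3 treated values all lie below the 3 untreated ones. Of 35 points 28 lie left of 0, and the intervals of only Prim1 and Prim2 leave out 0.

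Counts of this kind depended on single arrays. Without treated replicate 1, 12 of the 35 were lower at an unadjusted p under 0.05 (3.64% of all genes) and 17 did not overlap (9.34% of all). Without untreated replicate 3 the counts were 9 (4.84% of all) and 15 (12.2% of all). Without treated replicate 2 only 1 was lower at that p (2.43% of all) and 5 did not overlap (11.5% of all), and the median difference was −0.26. In none of these fits did a replication gene pass the adjusted threshold, the smallest adjusted p being 0.645, without untreated replicate 3.

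The values by array showed a common order. Averaged over the 35 genes, log2 intensity was 9.43, 8.68 and 9.005 in treated Tregs, against 9.61, 9.52 and 9.03 in untreated Tregs. Treated replicate 1 thus lay close to the first 2 untreated samples, and untreated replicate 3 close to treated replicate 3. The groups averaged 9.04 ± 0.38 in treated and 9.39 ± 0.31 in untreated Tregs (SD, n = 3 each), a gap about as large as the spread within a group. Treated replicate 2 held the lowest value of 24 genes, treated replicate 3 of 6, untreated replicate 3 of 4 and untreated replicate 2 of 1. Untreated replicate 1 held the highest value of 17 genes and untreated replicate 2 of 13. Treated replicate 1 lay above both other treated samples in 24 genes and above untreated replicate 3 in 28, but below untreated replicate 1 in 31. Within the untreated group, replicate 3 lay below both others in 29 of the 35.

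**Figure D2:**
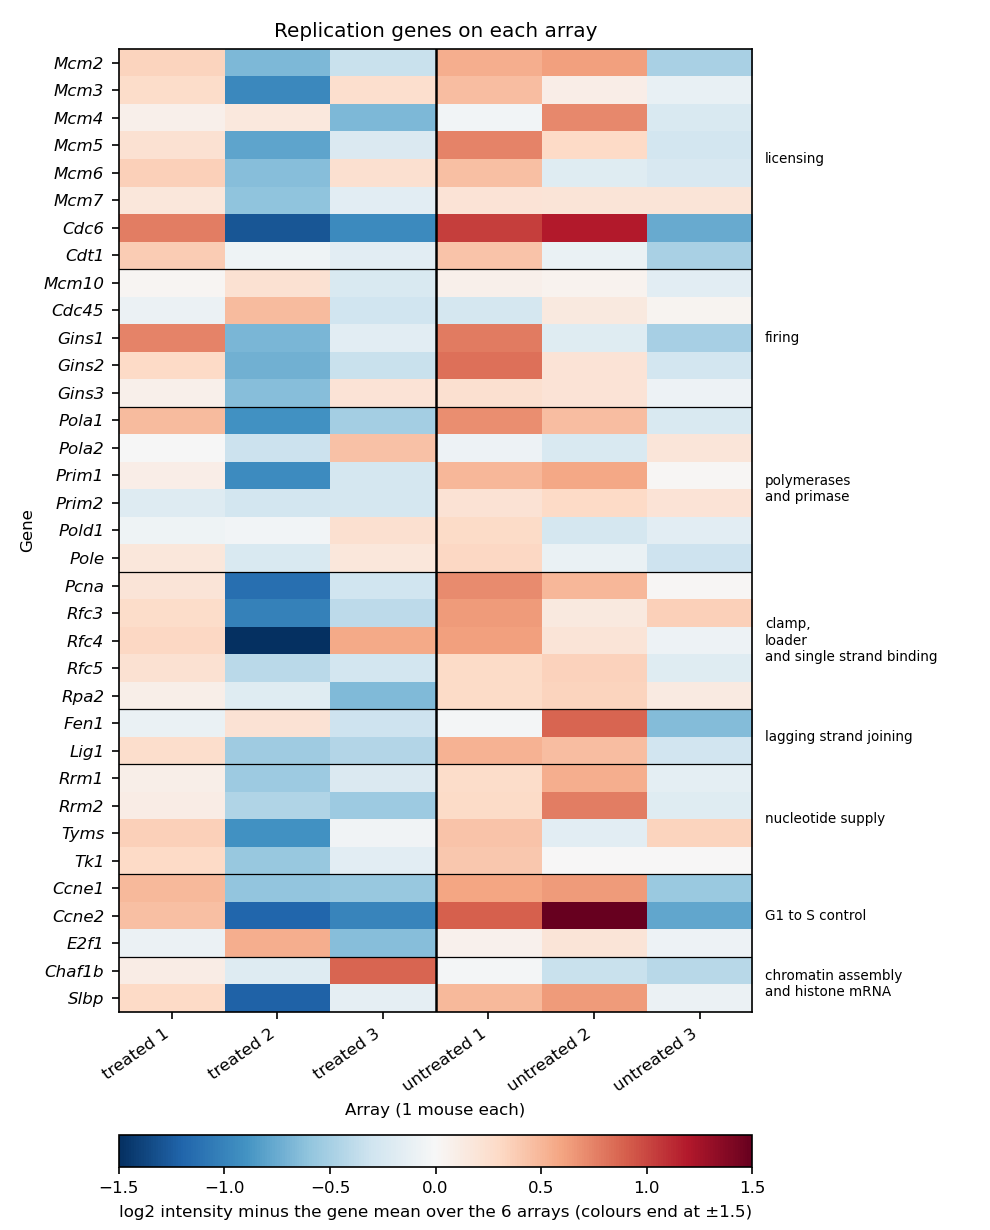
Each row is a replication gene and each column an array, with treated Tregs left of the line and untreated Tregs right of it; colour gives the log2 intensity minus the mean of that gene over the 6 arrays. Blue prevails in treated replicate 2, which has the lowest value of 24 genes, and Cdc6 and Ccne2 are low in treated replicates 2 and 3 and in untreated replicate 3.

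Most genes followed this order closely. Each gene was set against the mean of the others over the 6 arrays, which share depth, scaling and cell content, so that the correlation is a description only. The median r was 0.80, and 17 genes exceeded 0.8, with Pola1 (0.99), Mcm5 (0.98), Lig1, Rfc5 and Mcm2 (0.97 each) and Cdc6 (0.96) at the top. After quantile normalization the median was 0.74, with 16 genes above 0.8 and 6 below 0. These counts have no share over all genes beside them. On the probe sets used, Cdc45 (−0.55), Chaf1b (−0.15), E2f1 (−0.13) and Pola2 (−0.13) ran the other way. Mcm10 (0.02) and Pold1 (0.03) showed no relation there.

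Licensing genes, which load and form the helicase, lay below 0 in 7 of 8 cases, with a median difference of −0.35. Cdc6, which recruits the helicase to origins, measured 9.47, 7.42 and 7.75 in treated Tregs and 9.74, 9.88 and 7.95 in untreated Tregs. Its values fell into a high set, made of treated replicate 1 with untreated replicates 1 and 2, and a low set of the other 3, so the groups overlapped. The difference of −0.98 had an interval of −2.58 to 0.62, the widest of the list. Cdt1, the other loading factor, measured 11.04, 10.59 and 10.50 in treated Tregs and 11.09, 10.56 and 10.17 in untreated Tregs, a difference of +0.11 (interval −0.54 to 0.75). Its sign turned to −0.06 when treated replicate 1 was left out, to −0.11 when untreated replicate 3 was left out, and to −0.07 with age as a covariate.

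Among the helicase subunits, Mcm2 measured 10.97, 9.97 and 10.30 in treated Tregs and 11.18, 11.26 and 10.15 in untreated Tregs. The 2 high untreated samples exceeded every treated one, and untreated replicate 3 lay among the treated (difference −0.45, interval −1.33 to 0.43). Mcm4 measured 12.20, 12.29 and 11.45 in treated Tregs and 12.08, 12.84 and 11.90 in untreated Tregs, with overlapping groups (difference −0.30, interval −1.06 to 0.47). Mcm5 measured 11.09, 10.07 and 10.64 in treated Tregs and 11.59, 11.15 and 10.58 in untreated Tregs (difference −0.51, interval −1.32 to 0.29). Mcm7 measured 11.83, 11.07 and 11.51 in treated Tregs and 11.88, 11.86 and 11.86 in untreated Tregs, the narrowest untreated spread of the 6 subunits. Its groups did not overlap, though treated replicate 1 came within a narrow margin (difference −0.39, interval −0.91 to 0.12). Mcm3 differed by −0.30 and Mcm6 by −0.02, and both turned to above 0 without treated replicate 2, Mcm3 to +0.11 and Mcm6 to +0.29.

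Factors that start the helicase had a median difference of −0.06, with 3 of 5 below 0. Gins2, a GINS subunit, measured 8.82, 7.80 and 8.19 in treated Tregs and 9.34, 8.73 and 8.25 in untreated Tregs (difference −0.50, interval −1.34 to 0.33). Gins1 differed by −0.06 and Gins3 by −0.24. Gins1 measured 9.09, 7.66 and 8.18 in treated Tregs and 9.12, 8.16 and 7.84 in untreated Tregs, so replicate 1 was the highest sample in each group. Cdc45, which joins the helicase when an origin fires, differed by +0.06, and Mcm10, needed to activate it, by +0.02. The Cdc45 probe set used here measured 7.92, 8.49 and 7.70 in treated Tregs and 7.74, 8.15 and 8.04 in untreated Tregs, with its highest value in treated replicate 2, where most of the list was lowest.

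The primase genes gave the smallest p values of the list. Prim2, the large primase subunit, measured 7.74, 7.65 and 7.67 in treated Tregs and 8.15, 8.23 and 8.14 in untreated Tregs. All treated values lay below all untreated ones, with an SD of 0.05 in each group. The level was 1.40-fold lower in treated Tregs (difference −0.49, interval −0.82 to −0.15, limma adjusted p = 0.914). Prim1, the catalytic subunit that makes the RNA primer, measured 9.94, 8.89 and 9.58 in treated Tregs and 10.34, 10.42 and 9.85 in untreated Tregs. Treated replicate 1 lay just above untreated replicate 3, and the others were separated (1.66-fold lower, difference −0.73, interval −1.44 to −0.03, limma adjusted p = 0.914). Pola1, the catalytic subunit of the polymerase that extends the primer, measured 9.68, 8.31 and 8.71 in treated Tregs and 9.91, 9.68 and 8.99 in untreated Tregs (difference −0.62, interval −1.56 to 0.31). Its partner Pola2 differed by +0.08. The genes of the polymerases that complete the strands also lay near 0, with Pold1 at +0.09 and Pole, the leading strand enzyme, at +0.06. Their intervals ran from −0.39 to 0.57 and from −0.45 to 0.58.

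All 5 genes of the clamp, its loader and single strand binding lay below 0, with a median difference of −0.50. Pcna, the sliding clamp that holds polymerases on DNA, measured 12.91, 11.58 and 12.41 in treated Tregs and 13.42, 13.21 and 12.73 in untreated Tregs. Treated replicate 1 lay above untreated replicate 3 and below the other 2 (1.76-fold lower, difference −0.82, interval −1.65 to 0.02, limma adjusted p = 0.914). Rpa2, a subunit of the complex that covers single-stranded DNA, measured 9.54, 9.27 and 8.79 in treated Tregs and 9.73, 9.78 and 9.59 in untreated Tregs. Its groups did not overlap (difference −0.50, interval −1.02 to 0.02). Of the loader genes, Rfc3 measured 6.91, 5.62 and 6.24 in treated Tregs and 7.28, 6.79 and 6.998 in untreated Tregs (difference −0.77, interval −1.54 to 0.01). Rfc4 measured 8.39, 6.48 and 8.65 in treated Tregs and 8.70, 8.28 and 8.01 in untreated Tregs, and its difference of −0.49 came from treated replicate 2: without it the value was +0.37. Rfc5 differed by −0.31. Fen1, which trims the flaps between lagging strand fragments, differed by −0.13, and Lig1, which joins the fragments, by −0.47. Fen1 measured 11.07, 11.39 and 10.85 in treated Tregs and 11.14, 12.04 and 10.52 in untreated Tregs, so that untreated samples held both the highest and the lowest value. The other Fen1 probe set measured 8.03, 7.36 and 7.29 in treated Tregs and 7.96, 8.44 and 7.88 in untreated Tregs, with overlap (difference −0.53).

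Nucleotide supply genes were below 0 in 4 of 4 cases (median −0.43). Rrm2, the subunit of ribonucleotide reductase that is made anew in S phase, measured 12.45, 11.88 and 11.79 in treated Tregs and 12.62, 13.10 and 12.15 in untreated Tregs, overlapping through treated replicate 1 and untreated replicate 3 (1.505-fold lower, difference −0.59, interval −1.28 to 0.10). Rrm1, its larger partner, measured 10.49, 9.86 and 10.18 in treated Tregs and 10.68, 10.95 and 10.26 in untreated Tregs (difference −0.46). Tyms, which makes thymidylate, differed by −0.40, and the salvage enzyme gene Tk1 by −0.28.

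The genes that control entry into S phase differed widely among mice. Ccne2, a cyclin E gene, measured 9.27, 7.63 and 7.83 in treated Tregs and 9.72, 10.42 and 8.04 in untreated Tregs. This was the same division of the arrays as for Cdc6, with treated replicate 1 beside untreated replicates 1 and 2. The estimate of −1.15 was the lowest of the list and its interval, −2.73 to 0.43, was nearly as wide as that of Cdc6. Ccne1, the other cyclin E gene, measured 10.43, 9.35 and 9.37 in treated Tregs and 10.53, 10.58 and 9.39 in untreated Tregs, again divided in this way (difference −0.45, interval −1.43 to 0.54). E2f1, a transcription factor that drives the S phase programme, measured 7.71, 8.34 and 7.16 in treated Tregs and 7.87, 7.997 and 7.73 in untreated Tregs, with the highest and the lowest values in treated samples (difference −0.13, interval −0.83 to 0.57). The next brightest E2f1 probe set measured 7.10, 6.74 and 6.56 in treated Tregs and 7.52, 7.49 and 6.69 in untreated Tregs (difference −0.44). A dim remaining E2f1 probe set differed by −0.07. Slbp, which binds the stem-loop of histone mRNAs, measured 10.08, 8.58 and 9.65 in treated Tregs and 10.28, 10.42 and 9.70 in untreated Tregs (difference −0.69, interval −1.63 to 0.25). Chaf1b, a subunit of the chaperone that places histones on new DNA, had the highest difference of the list at +0.52 (interval −0.16 to 1.204). It measured 6.56, 6.25 and 7.32 in treated Tregs and 6.42, 6.11 and 6.04 in untreated Tregs, so the estimate leaned on treated replicate 3.

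Most genes had further probe sets, and these did not all give the same size of difference. The 35 genes had 80 probe sets, of which 63 lay below 0, where 42.0% of all 45037 probe sets did so. Their median difference was −0.31, and that of all probe sets was +0.05. At an unadjusted p under 0.05, 9 were lower (3.00% of all probe sets) and 0 higher (1.53% of all). The groups did not overlap on the lower side in 12 (5.02% of all) and on the higher side in 0 (5.14% of all). Probe sets whose names end in x_at or s_at contain probes that can match several transcripts, and under the rule of the highest mean they stood for 11 genes, all of Mcm2 to Mcm7 and Rrm2 among them. The other Mcm4 probe set measured 10.76, 10.02 and 10.47 in treated Tregs and 11.20, 11.33 and 10.83 in untreated Tregs, without overlap, a difference of −0.70 against −0.30 for the one used. In Mcm5 the corresponding values were 8.48, 7.27 and 8.45 in treated Tregs and 9.02, 8.62 and 8.76 in untreated Tregs, a difference of −0.73 with no overlap, and a dim remaining one differed by −0.05. A further Mcm7 probe set measured 9.09, 8.18 and 8.90 in treated Tregs and 9.44, 9.58 and 9.84 in untreated Tregs (difference −0.90), and its remaining ones differed by −0.33 and −0.44. The other probe set of Mcm2 differed by −0.37, a smaller difference than the −0.45 of the one used. The others of Mcm3 ran from −0.77 to −0.13, and those of Mcm6 differed by −0.04 and +0.20. One Rrm2 probe set measured 10.73, 9.43 and 10.12 in treated Tregs and 11.15, 11.58 and 11.07 in untreated Tregs, a difference of −1.17 (interval −1.96 to −0.38), and the remaining one differed by −1.01, both without overlap. Cdc45 had a second probe set at 7.81, 7.43 and 7.58 in treated Tregs and 7.92, 8.16 and 8.28 in untreated Tregs, also without overlap, whose difference of −0.51 had the opposite sign to that of the probe set used.

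With x_at and s_at probe sets left out, a setting chosen after seeing the data, the list still held 35 genes. The median difference was then −0.47, with 5 genes lower at an unadjusted p under 0.05 (3.46% of all genes) and 6 without overlap (5.60% of all). The smallest adjusted p among them was 0.900. In 9 of the 28 genes with more than 1 probe set the signs disagreed: Cdc45, Cdt1, Chaf1b, Mcm6, Pola2, Pold1, Prim2, Slbp and Tyms. For Prim2 the other 2 probe sets differed by −0.19 and +0.15, so its small p rests on 1 of 3 probe sets. Of 27 probe sets with a mean under 7 on the log2 scale the median difference was −0.13, and of the 53 at 7 or more it was −0.44.

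**Figure D3:**
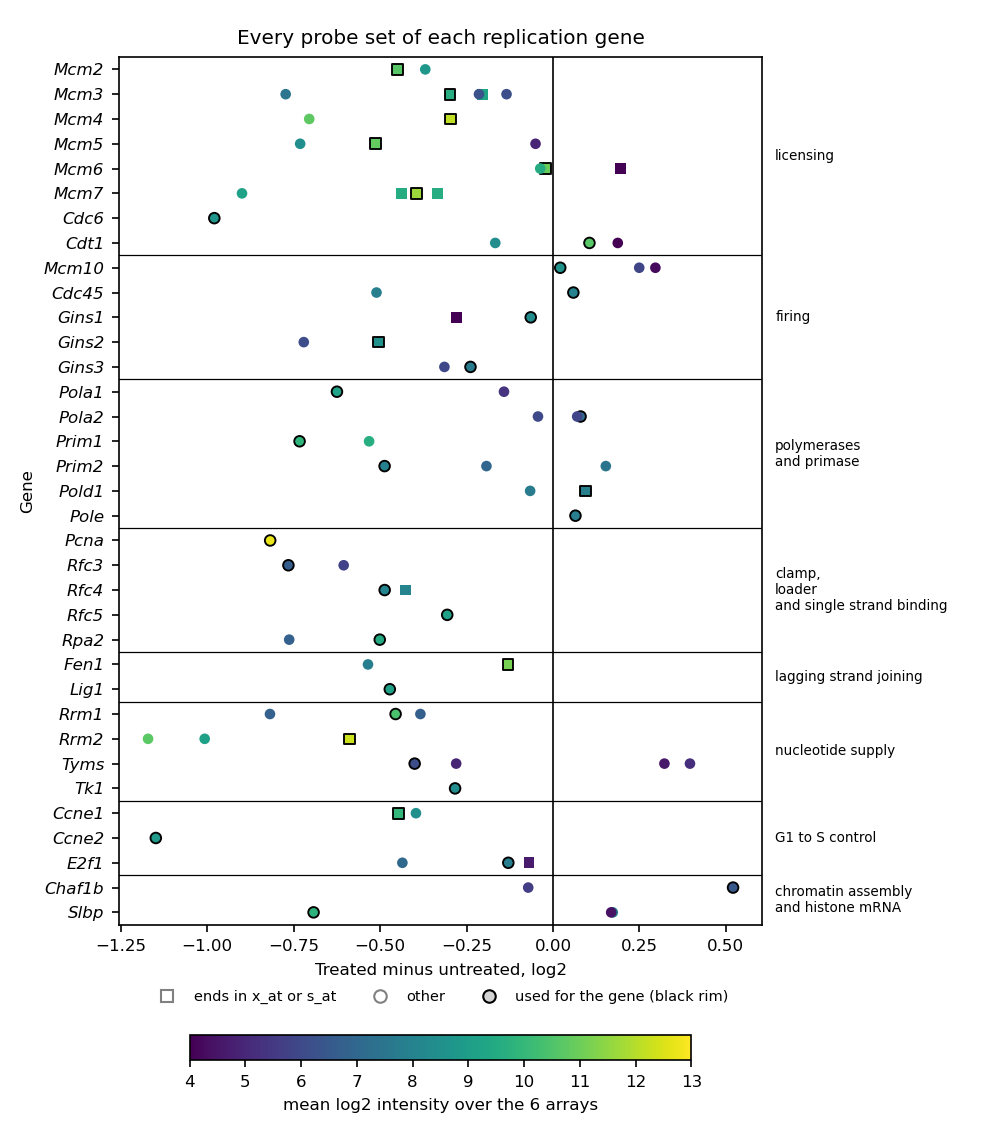
Difference in log2 intensity between treated and untreated Tregs (x axis) for all 80 probe sets of the replication genes (y axis, by gene); squares end in x_at or s_at, colour gives the mean log2 intensity over the 6 arrays, and a black rim marks the probe set used for the gene. For Mcm4, Mcm7 and Rrm2 a probe set outside the squares lies further left, at −0.70, −0.90 and −1.17.

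Replication genes outside the list were counted in the same way. Of 41 measured, such as origin recognition subunits and checkpoint proteins, 30 lay below 0 (41.5% of all genes did) with a median of −0.15. At an unadjusted p under 0.05, 3 were lower (3.17% of all genes) and 0 higher (1.82% of all), and 5 did not overlap on the lower side (5.24% of all). Dbf4 and Cdc7, which together form the kinase that fires origins, differed by −0.60 and −0.74. Dbf4 measured 8.07, 7.64 and 8.04 in treated Tregs and 8.59, 8.59 and 8.38 in untreated Tregs, without overlap. Pole4, a small polymerase epsilon subunit, differed by −0.71 and Clspn, a checkpoint mediator, by −0.71. None passed over all genes (limma adjusted p = 0.914 for all 4). The mean of the 41 genes by array was 9.03, 8.44 and 8.77 in treated and 9.19, 8.98 and 8.75 in untreated samples. Treated replicate 2 was again the lowest and untreated replicate 1 the highest, and untreated replicate 3 again lay close to treated replicate 3.

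Mitosis genes act later in the cycle, when the copied chromosomes are separated. Of 39 measured, 33 lay below 0 (41.5% of all genes did) with a median of −0.44. At an unadjusted p under 0.05, 11 were lower (3.17% of all genes) and 0 higher (1.82% of all). In 9 the groups did not overlap on the lower side (5.24% of all). Nuf2, a kinetochore gene, measured 8.75, 8.32 and 7.96 in treated Tregs and 9.52, 9.33 and 8.90 in untreated Tregs (difference −0.90). Mad2l1, a spindle checkpoint gene, differed by −0.89, with Aurkb at −1.10 and Cdk1 at −0.82, all without overlap (limma adjusted p = 0.914 each). The mitosis mean was 9.36, 8.96 and 9.08 in treated and 9.65, 9.504 and 9.4997 in untreated samples. Untreated replicate 3 lay below the mean of the other 2 untreated samples by 0.53 in the replication list but by only 0.08 in the mitosis list, and below both of them in 29 of 35 replication genes against 15 of 39 mitosis genes. After quantile normalization the 2 gaps were −0.49 and −0.05. The difference between the 2 lists was not tested.

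**Figure D4:**
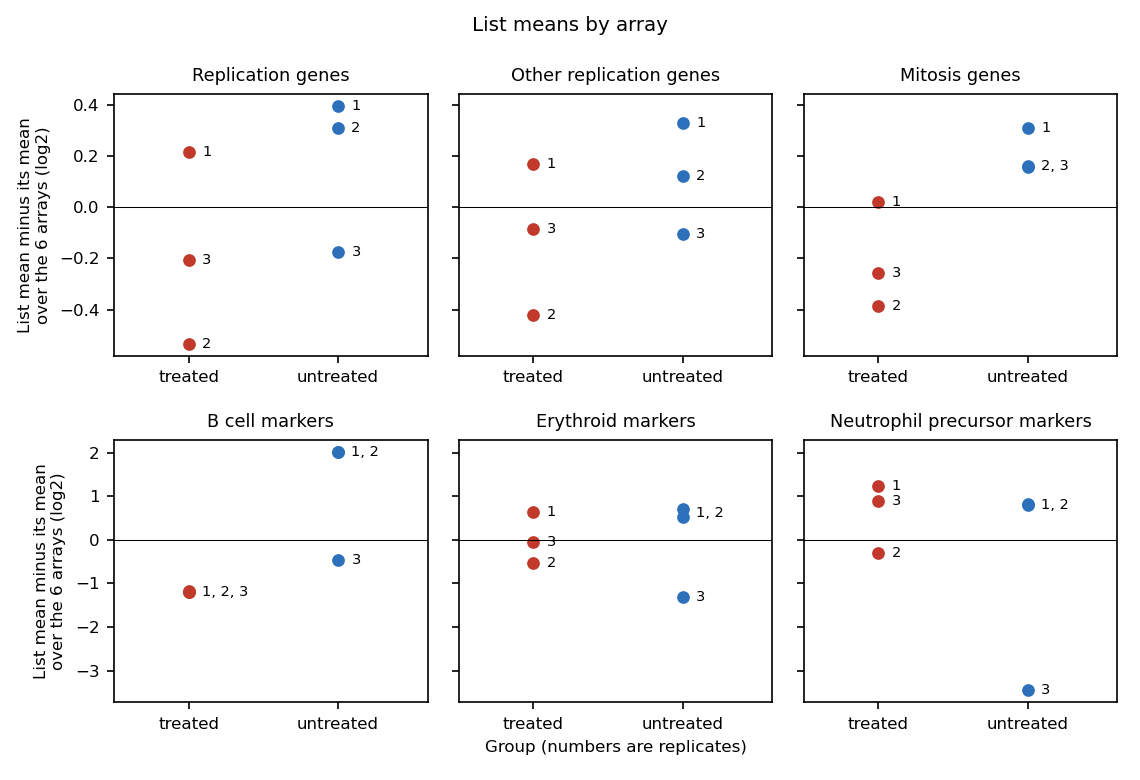
Mean log2 intensity of each gene list on each array, minus the mean of that list over the 6 arrays (y axis), in treated (red, left) and untreated (blue, right) Tregs, with replicate numbers beside the points. For the replication genes treated replicate 3 (−0.21) and untreated replicate 3 (−0.18) sit side by side, but untreated replicate 3 sits beside untreated replicate 2 for the mitosis genes (+0.16 each), and it is the lowest array for erythroid (−1.30) and neutrophil precursor markers (−3.45).

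Genes that hold cells out of S phase or act early in G1 leaned lower, with some on each side. Of 30 measured, 19 lay below 0 (41.5% of all genes did) and 11 above (58.5% of all). Their median was −0.19, against +0.05 for all genes. At an unadjusted p under 0.05, 3 were lower (3.17% of all genes) and 1 higher (1.82% of all). The groups did not overlap on the lower side in 4 (5.24% of all) and on the higher side in 1 (5.61% of all). Cdkn1a, the p21 inhibitor of cyclin-dependent kinases, measured 8.48, 8.99 and 9.04 in treated Tregs and 8.31, 8.15 and 8.37 in untreated Tregs, with every treated value above every untreated one (difference +0.56, interval 0.08 to 1.03). Rbl1, the p107 pocket protein that binds E2F factors and is itself made in dividing cells, measured 10.23, 9.34 and 10.04 in treated Tregs and 10.83, 11.07 and 10.56 in untreated Tregs, without overlap (difference −0.95, interval −1.59 to −0.31). The antiproliferative gene Btg2 differed by −0.58 and the atypical cyclin gene Ccng2 by −0.54. None of these 4 passed over all genes (limma adjusted p = 0.914 each).

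Markers of other cells moved with these levels in part. Over the 6 arrays the mean of the replication list had a correlation of 0.74 with the mean of the B cell markers, 0.77 with the erythroid precursor genes and 0.44 with the neutrophil precursor genes. It was 0.63 with the thymocyte genes, 0.49 with those of CD8 and NK cells and 0.39 with those of myeloid and dendritic cells. The mean of the 6 Treg markers ran the other way, with a correlation of −0.61. These are descriptions over arrays that share their cells and scaling. All 9 B cell markers measured lay below 0 in treated Tregs (median −1.85), whereas 5 of 8 erythroid genes lay below 0 (median −0.03) and 7 of 8 neutrophil precursor genes above 0 (median +1.15). Treated replicate 1 had a replication mean of 9.43 at a B cell mean of 6.75, the level of the other 2 treated samples. The germinal centre and plasma cell genes, whose mean ran from 7.80 to 8.16 in treated and from 8.14 to 8.23 in untreated samples, had a correlation of −0.11 with the list. Of the 7 measured, 5 lay below 0 and 2 above. That mean leaves out Jchain, a gene of antibody-secreting cells that was counted among the B cell markers. Jchain measured 5.73, 5.83 and 5.60 in treated Tregs, against 12.50, 13.43 and 7.04 in untreated Tregs. Treated replicate 1 had the highest mean of its group for the erythroid, neutrophil precursor, myeloid, CD8 and NK, and thymocyte genes. It did not for the Treg, B cell, or germinal centre and plasma cell genes. Untreated replicate 3 had the lowest erythroid mean of the 6 arrays (7.01). Its replication mean of 9.03 lay above those of treated replicates 2 and 3 (8.68 and 9.005). The part of these cells in the replication values was not tested.

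**Figure D5:**
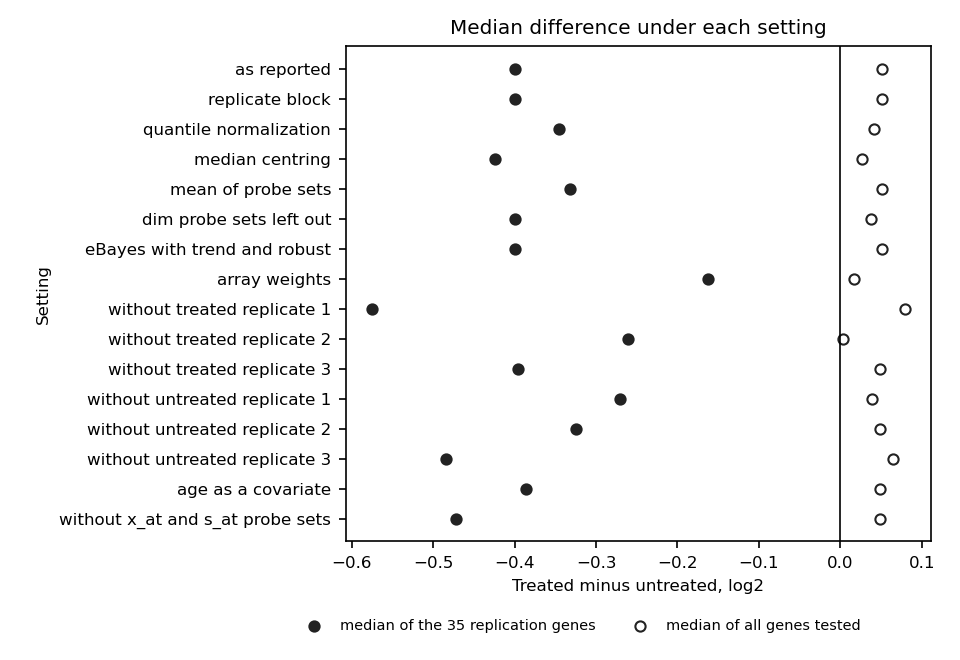
Median difference in log2 intensity between treated and untreated Tregs (x axis) under each way of processing (y axis), for the 35 replication genes (filled) and for all genes tested (open). The filled points lie below 0 in every setting shown, from −0.58 without treated replicate 1 to −0.16 with array weights.

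The lean of the list was smallest with array weights. The median of the 35 genes was −0.16 there, beside +0.02 for all genes, and treated replicate 1 and untreated replicate 1 carried the largest weights (2.52 and 2.58). With quantile normalization, which makes all arrays share 1 distribution, it was −0.35 beside +0.04.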

How the data were processed

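RNA of sorted splenic Tregs was isolated with Trizol and amplified before labelling, per the labels' protocols, which can strengthen 3′ bias. The deposited table holds intensity values on a linear scale, which the authors made with RMA in GenePattern, per the series' design text. No version of RMA is named there. RMA usually equalises arrays, but the deposited values did not share 1 distribution, with interquartile ranges from 2.59 to 3.01 on the log2 scale. As far as the arrays were equalised, a change common to most transcripts cannot be seen. Here log2 was taken of these values. After removal of 64 control probe sets, 45037 were fitted with limma 3.58.1 in R 4.3.3 (lmFit, eBayes), with no covariate. Symbols came from the platform annotation, updated by gene identifier for 34741 of 34945 single-symbol probe sets. Where a gene had several probe sets, that of highest mean log2 stood for it, which left 18193 genes, and p-values were adjusted over these genes with a threshold of 0.05. Intervals are 95% intervals. Each array held 1 mouse, so p-values measure the spread between mice.

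Full values were given for genes at an unadjusted p under 0.05, for the gene with the highest mean of each role, and for E2f1, Pcna and Mcm2, and others were added after their values were seen. From the lists of other replication genes, mitosis genes and cell cycle brakes the 4 genes with the smallest p were named, and cell type markers were given mainly as list means. The genes and lists were chosen with earlier results of these data known. The test was tried first on data simulated with independent noise of each gene's spread. It recovered 26.2% of 2-fold and 74.4% of 4-fold changes at an adjusted p under 0.05. Changes of the size seen in most of this list could therefore be missed. Plots were made in matplotlib 3.10.9 (Python 3.11.15). Alternatives are listed in the closing section.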

Additional observations from a re-analysis of the deposited data

How the results depend on the processing

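The median difference of the list stayed below 0 in every setting run, from −0.58 to −0.16, and no member reached an adjusted p of 0.05 in any (smallest 0.604, with array weights). Genes lower over all genes tested numbered 0 in the reported fit, 1 with median centring, 4 with array weights, 1 without x_at and s_at probe sets, 2 at an adjusted p of 0.1, and 0 to 31 on leaving out 1 replicate, with 31 without untreated replicate 3. Genes higher numbered 0, 1 with array weights, and 0 to 1 on leaving out 1 replicate, with 1 without untreated replicate 3. Members lower at an unadjusted p under 0.05 (2 as reported) numbered 5 with the mean of probe sets (3.02% of all genes) and 1 with array weights (3.74% of all). They numbered 5 without x_at and s_at probe sets (3.46% of all). Of 80 probe sets taken singly, 9 were lower (3.00% of all probe sets). Leaving out 1 replicate gave 1 to 12, with 12 without treated replicate 1 (3.64% of all), 9 without untreated replicate 3 (4.84%) and 1 without treated replicate 2 (2.43%). Members higher numbered 0 to 1. Members without overlap on the lower side (3 as reported) numbered 6 without x_at and s_at probe sets (5.60% of all) and 3 to 17 on leaving out 1 replicate. There were 17 without treated replicate 1 (9.34% of all), 15 without untreated replicate 3 (12.2%) and 5 without treated replicate 2 (11.5%). On the higher side there was 1 with the mean of probe sets and 0 to 2 on leaving out 1 replicate. Shares over all genes were not computed for the other fits that left out 1 replicate, or for the higher side in these settings. Those counts therefore have no background beside them. The causes were not tested.

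Deviations of same-numbered samples correlated above 0 in every pair, though only weakly for replicates 2 and 3 (r = 0.45, 0.083 and 0.088). Treated replicates 1 and 3 each correlated best with the untreated sample of the same number, replicate 3 only weakly. Treated replicate 2 correlated best with untreated replicate 3 (r = 0.17). These values do not settle whether the numbers pair the mice, and the reported fit did not pair them. With the replicate block, 5 members were lower at an unadjusted p under 0.05, where 4.13% of all genes were, and 0 genes passed over all genes.

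The sign turned in 17 members in at least 1 setting. In Mcm6 the difference was 0.0853 after quantile normalization, 0.0456 with the mean of probe sets, 0.0923 with array weights and 0.196 on another probe set. In Mcm10 it was −0.0036 with median centring, −0.0336 with array weights and −0.0608 with age as a covariate. Cdt1 had −0.0688 with age and −0.1669 on another probe set. Cdc45 had −0.2258 with the mean of probe sets and −0.5104 on its other one. Gins1 had 0.1477 and Pold1 −0.0715 with array weights. Pold1 had −0.0661 on its other probe set, which is the one left without x_at and s_at probe sets. Tyms had 0.0095 with the mean of probe sets, and 0.396 and 0.3222 on others. On other probe sets Chaf1b had −0.0717, Pola2 −0.0434, Prim2 0.1527 and Slbp 0.1729 and 0.1683. Leaving out 1 replicate gave Mcm3 −0.5081 to 0.1116, Mcm6 −0.2086 to 0.2894, Mcm10 −0.0857 to 0.1383, Cdt1 −0.1115 to 0.3465, Cdc45 −0.4209 to 0.2247, Gins1 −0.4539 to 0.3074, Gins3 −0.4023 to 0.0229, Rfc4 −0.7624 to 0.3690, Pola2 −0.1194 to 0.2580, Pold1 −0.0166 to 0.2614, Pole −0.0745 to 0.2390, Fen1 −0.4850 to 0.2731 and E2f1 −0.4314 to 0.1605.

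Each group held 3 mice, which limits the precision.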
